A study of Arabidopsis thaliana with 2 samples.

Results

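Lipid transfer proteins were followed in roots of Arabidopsis thaliana, the accession Col-0, after a short exposure to aluminium. The family was taken as the array probes whose printed gene description contains the words lipid transfer protein. This gave 82 probes, 1 per gene, of 21500 non-control probes present on both arrays, and 78 of the 82 genes entered the test among 19194 genes. The rule used the descriptions and no measured value, but it was chosen with earlier results of these data known. Seedlings aged 10 days were raised in water culture, and for 6 h their roots met either AlCl3 at 10 µM and pH 5.0 or, as the control, pH 5.0 without AlCl3. Until then all had been kept at pH 5.5 in MGRL medium (2%, modified) that held CaCl2 at 200 µM, under 12 h of daily light at 23 °C. The step from pH 5.5 to 5.0 is thus common to both treatments and cannot be read from the ratios. Each of 2 biological replicates is a 2-colour Agilent array that carries the aluminium RNA in one dye and the control RNA in the other, with the dyes exchanged between the replicates. The comparison asks which of these genes differ between aluminium-treated and control roots.

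Nonspecific lipid transfer proteins are small secreted proteins in which paired cysteines hold a bundle of helices around a cavity that binds a lipid. They are known as carriers of cutin, wax and suberin building blocks to the cell wall, and in roots suberin is laid down in the endodermis, a cell layer that controls the entry of water and ions. Some members stay at the cell surface through a glycosylphosphatidylinositol (GPI) anchor, some have a proline-rich stretch before the lipid-binding part, and a few act in systemic resistance, the immunity that spreads from an infected leaf. The members were sorted by these types from general knowledge of the family, which put 65 in a list and left 17 in none. Names are symbols or synonyms of the RefSeq gene table, and genes without one are called by their locus. By their descriptions 4 members belong to other protein families, namely the glycolipid transfer protein genes GLTP1 and GLTP3, the seed albumin gene SESA5, and AT3G12545, which is annotated with a tRNA synthetase domain.

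At an adjusted p under 0.05, 6 members rose and 9 fell in the aluminium RNA, and 63 did not pass. Each adjusted p is limma's, with Benjamini-Hochberg adjustment across the 19194 genes tested. Ratios are log2 values, aluminium divided by control, and errors are SDs of both arrays (n = 2). Together 19.2% of the tested members were called, against 14.7% of all genes tested. The members that rose were 7.69% of those tested, against 8.25% of all genes, and those that fell were 11.5%, against 6.48%. The share that rose was near that of all genes, and the difference between the shares that fell was not tested. The median ratio of the tested members was -0.05 on replicate 1 and -0.02 on replicate 2, beside -0.00 and 0.01 for all genes. The ratios of 62 members lay within 0.5 of 0. Without the 4 members of other families, 75 genes were tested and the counts were again 6 higher and 9 lower.

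By protein type, all 6 genes that rose were in the list of GPI-anchored proteins, where 6 of 21 (28.6%) rose and 1 (4.76%) fell, against 8.25% and 6.48% of all genes. No gene rose among the 12 type I proteins, the 9 type II proteins, the 21 tested hybrid proline-rich proteins, the 1 gene listed as a copy of DIR1 or the 14 tested members in no list. In the same order, 2 (16.7%), 1 (11.1%), 4 (19%), 0 and 1 (7.14%) of their genes fell, and the last share is near that of all genes. The medians of the lists stayed near 0 all the same, at 0.05 for the GPI-anchored, -0.02 for type I, -0.06 for type II and -0.09 for the hybrid proline-rich genes, so that in each list the calls concern a minority of its genes. The difference between the lists was not tested. Not every listed locus had a member: 21 of 29 GPI-anchored, 9 of 12 type II and 22 of 25 hybrid proline-rich loci did, and 1 of 2 in the DIR1 list. The lists were chosen with earlier results of these data known, so their shares are a description only.

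**Figure D1:**
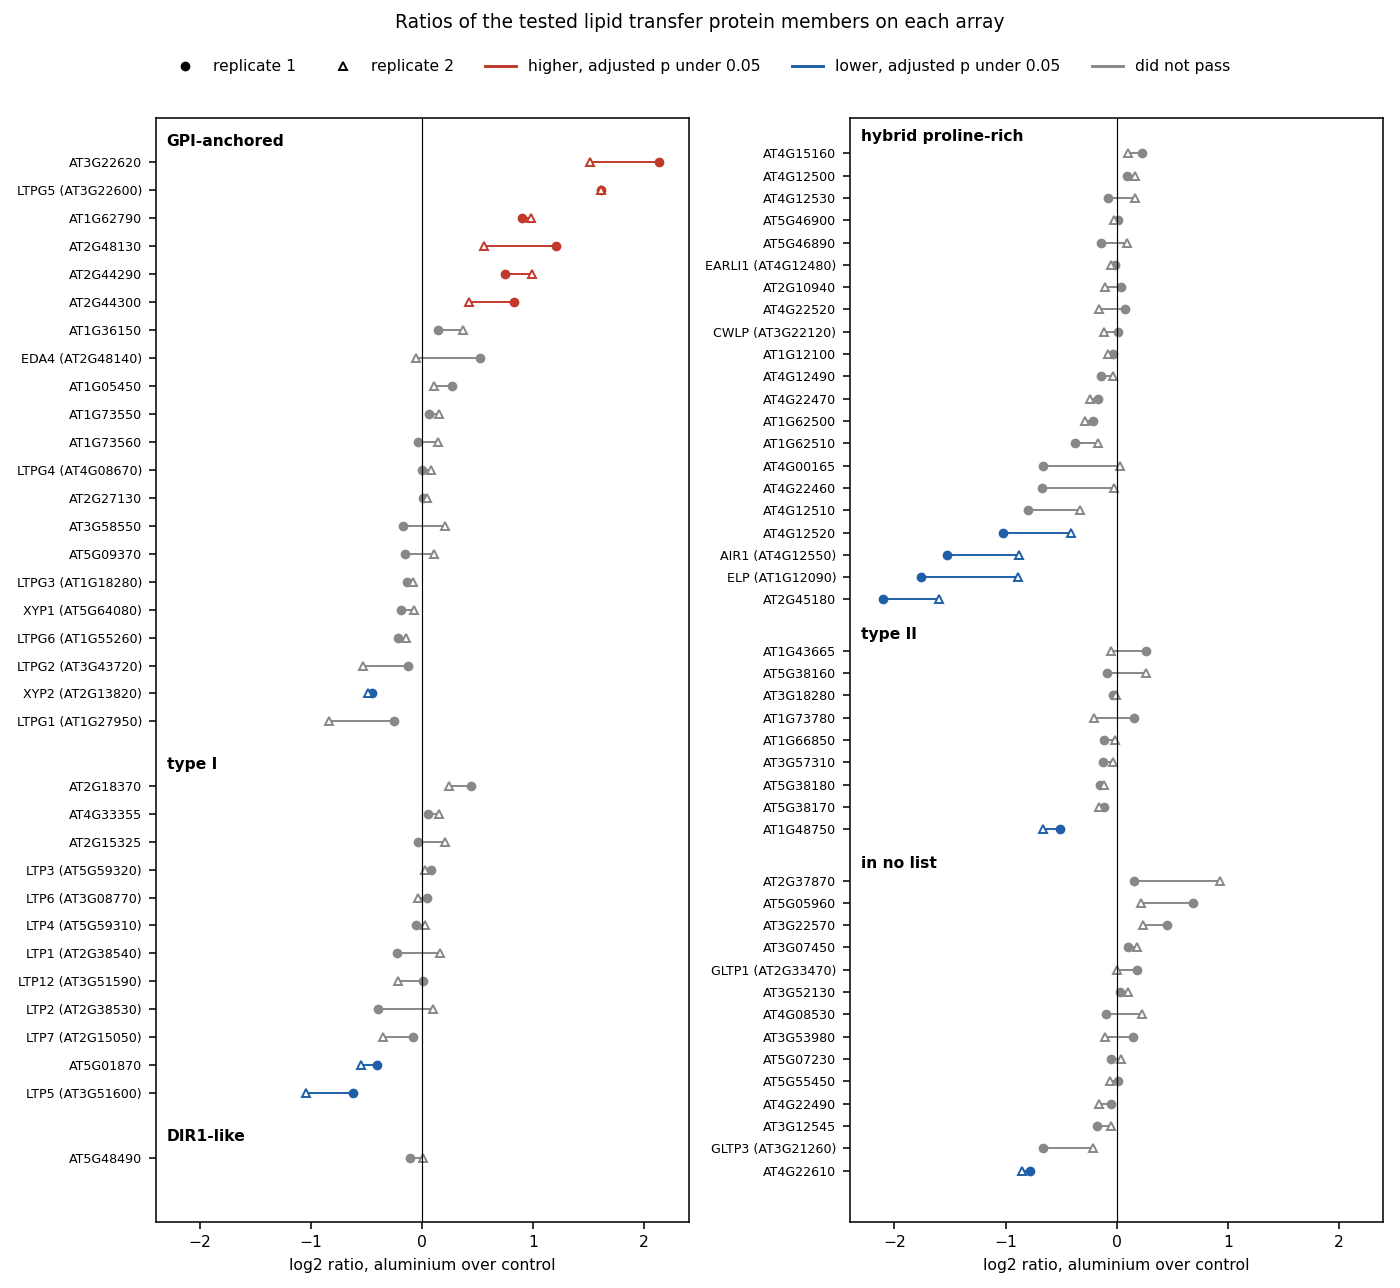
Log2 ratios of aluminium over control (horizontal axis) of the 78 tested members, by protein type, with a filled circle for replicate 1 and an open triangle for replicate 2, joined by a line. The 6 members in red rose and the 9 in blue fell at an adjusted p under 0.05, and all red genes stand in the GPI-anchored list.

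Among the GPI-anchored genes, the highest ratio was that of AT3G22620. Its normalized log2 signal was 14.94 in aluminium and 12.81 in control RNA on replicate 1, and 14.84 and 13.33 on replicate 2. Both aluminium signals stood above both control signals, and the gene rose by 1.82 ± 0.44, or 3.54-fold (adjusted p = 0.00598 in limma). LTPG5 (AT3G22600), a GPI-anchored lipid transfer protein gene a short way along the same chromosome, had signals of 13.60 in aluminium and 11.99 in control RNA on replicate 1, and of 13.86 and 12.24 on replicate 2. The same ratio came from both arrays, 1.61 ± 0.0018, or 3.06-fold (adjusted p = 0.00265 in limma), and again the treatments did not overlap. These were the only 2 members at least 2-fold higher on both arrays, a size that 1.64% of all genes reached.

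The other 4 GPI-anchored genes that rose did so by less. AT1G62790 had signals of 11.89 in aluminium and 11.00 in control RNA on replicate 1, and 12.24 and 11.26 on replicate 2, a rise of 0.94 ± 0.055 (adjusted p = 0.00711 in limma). AT2G48130 was at 10.23 against 9.02 on replicate 1 and at 9.90 against 9.35 on replicate 2. Its rise of 0.88 ± 0.46 (adjusted p = 0.0333) was carried more by replicate 1, where the ratio was 1.21, than by replicate 2 with 0.55. For AT2G44290, which the array's description names YLS3, the signals were 9.31 against 8.56 and 9.65 against 8.66, a rise of 0.87 ± 0.17 (adjusted p = 0.0111). YLS genes were first described as transcripts of yellowing leaves. Its neighbour AT2G44300 was at 8.38 against 7.55 and 8.35 against 7.93, a rise of 0.63 ± 0.29 (adjusted p = 0.0375). In each of these 4 genes the lower aluminium signal was above the higher control signal.

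The list did not move as 1 body. XYP2 (AT2G13820) fell, with signals of 11.27 in aluminium and 11.72 in control RNA on replicate 1, and of 11.39 and 11.88 on replicate 2. The fall of -0.47 ± 0.029 (adjusted p = 0.0342 in limma) was small and nearly the same on both arrays. Xylogen proteins such as XYP2 and its relative XYP1 are arabinogalactan proteins known for their part in the differentiation of xylem vessels. XYP1 did not pass, with a ratio of -0.13 ± 0.084 (adjusted p = 0.437).

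LTPG1 and LTPG2, which export wax to the surface of stems, did not pass either. LTPG1 had signals of 9.40 in aluminium and 9.65 in control RNA on replicate 1, and of 9.26 and 10.09 on replicate 2, with ratios of -0.26 and -0.83 (adjusted p = 0.0862 in limma). Its aluminium signals were below the control signals on both arrays, but the ratios lay far apart. LTPG2 had ratios of -0.12 and -0.53 (adjusted p = 0.168), and LTPG6 of -0.22 and -0.15 (adjusted p = 0.268). The remaining 10 GPI-anchored genes had mean ratios between -0.11 for LTPG3 and 0.26 for AT1G36150, and none passed. Among them was EDA4 (AT2G48140), named for an arrest of the embryo sac, with 0.53 on replicate 1 and -0.05 on replicate 2.

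**Figure D2:**
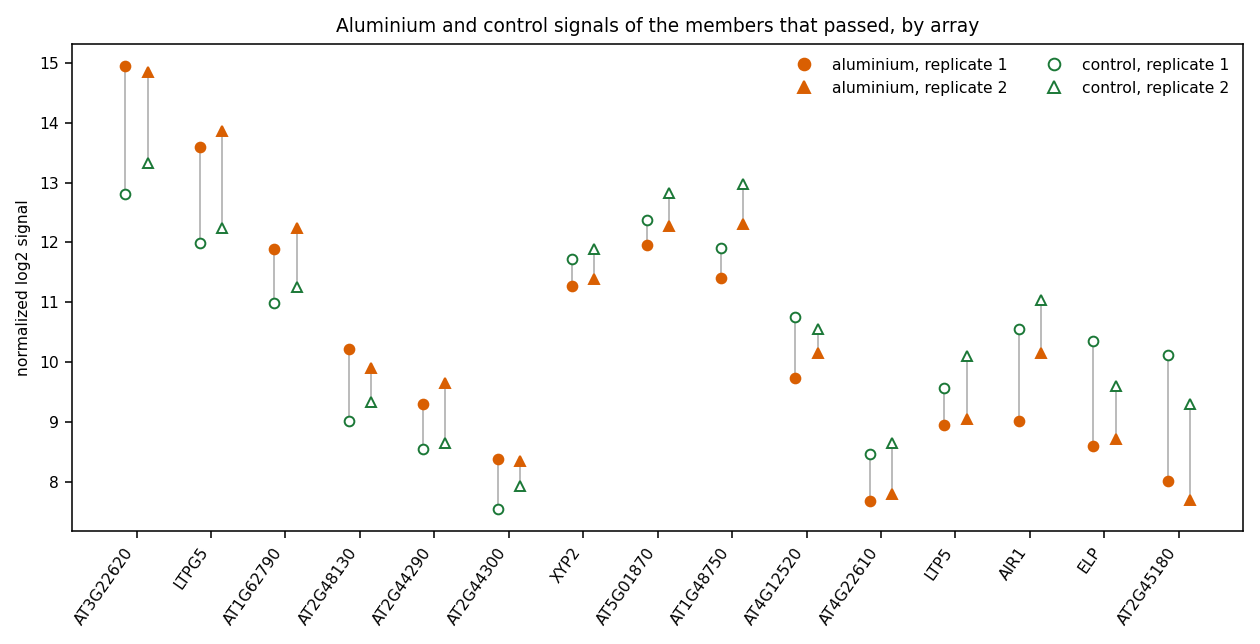
Normalized log2 signal (vertical axis) of the 15 members that passed, with aluminium filled in orange and control open in green, circles for replicate 1 and triangles for replicate 2, joined within an array. Levels of different genes come from different probes and are not comparable; within each gene the aluminium and control signals of the 2 arrays are apart, except for AT1G48750, where the level of both treatments differed between the arrays.

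The hybrid proline-rich proteins held the largest falls of the family. AT2G45180 had signals of 8.02 in aluminium and 10.12 in control RNA on replicate 1, and of 7.71 and 9.31 on replicate 2. The aluminium signals were far below both control signals, and the gene fell by 1.85 ± 0.35 on the log2 scale, or 3.61-fold (adjusted p = 0.00436 in limma). It was the only member at least 2-fold lower on both arrays, against 0.891% of all genes. ELP (AT1G12090), whose name stands for extensin-like protein after the cell wall glycoproteins, was at 8.60 against 10.36 on replicate 1 and at 8.71 against 9.61 on replicate 2. Its fall of -1.33 ± 0.61 (adjusted p = 0.0209) was larger on replicate 1, and the signals did not overlap.

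AIR1 (AT4G12550), first described as an auxin-induced gene of root cultures, had signals of 9.03 in aluminium and 10.56 in control RNA on replicate 1, and of 10.16 and 11.04 on replicate 2. It fell by 1.20 ± 0.46 on the log2 scale, or 2.30-fold (adjusted p = 0.0155 in limma), without overlap between the treatments. AT4G12520 was at 9.73 against 10.75 and at 10.15 against 10.56, also without overlap, a fall of -0.72 ± 0.43 (adjusted p = 0.0493), the highest adjusted p among the called members. The gene next to it, AT4G12510, had -0.79 and -0.33 and did not pass (adjusted p = 0.0594). The 2 genes are near-identical copies, and whether their probes tell them apart is not known from the files, so their values may not be independent.

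EARLI1 (AT4G12480) carries aluminium in its name, since RefSeq lists it as early Arabidopsis aluminum induced 1, and it is known to respond to cold and pathogens. In these roots its signals were 7.24 in aluminium and 7.25 in control RNA on replicate 1, and 7.38 and 7.43 on replicate 2. The treatments overlapped, and the ratio of -0.03 ± 0.026 did not pass (adjusted p = 0.854 in limma), with a 95% interval from -0.27 to 0.20. A change of up to those bounds at 6 h cannot be told from none here.

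AZI1 (AT4G12470), which primes defence in response to azelaic acid, was too dim to test. It was well above background in 1 of its 2 aluminium channels and in neither control channel. Its ratios were -0.17 and 0.38, opposite in sign, and no fold is given. Its neighbour AT4G12490 had -0.09 ± 0.080 and did not pass (adjusted p = 0.613). The other 14 tested members of the hybrid list, besides those named so far, had mean ratios between -0.35 for AT4G22460 and 0.17 for AT4G15160, and none passed. AT4G22460 and AT4G00165 were lower on replicate 1 alone, at -0.68 and -0.66, against -0.02 and 0.03 on replicate 2.

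The type I proteins are the classical small lipid transfer proteins, secreted without an anchor. LTP5 (AT3G51600), whose relatives in lily help pollen tubes adhere, had signals of 8.95 in aluminium and 9.58 in control RNA on replicate 1, and of 9.06 and 10.11 on replicate 2. It fell by 0.84 ± 0.30 on the log2 scale (adjusted p = 0.0199 in limma), and its treatments did not overlap. AT5G01870, which the array describes as similar to LTP6, was at 11.96 against 12.37 and at 12.27 against 12.82. It fell by 0.48 ± 0.099 (adjusted p = 0.0365), and the higher aluminium signal was just below the lower control signal.

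LTP1 and LTP2, which are abundant in the epidermis of shoots, gave ratios of opposite sign on the 2 arrays. LTP1 had -0.23 and 0.16 (adjusted p = 0.897), and LTP2 had -0.40 and 0.10 (adjusted p = 0.559 in limma). LTP3 and LTP4, known to respond to drought and abscisic acid, had ratios of 0.05 ± 0.040 and -0.01 ± 0.060. LTP6 had 0.01 ± 0.060, LTP7 had -0.22 ± 0.19 and LTP12 had -0.11 ± 0.16, and none of these 5 passed. AT2G15325 and AT4G33355 were at 0.09 ± 0.17 and 0.10 ± 0.066. AT2G18370 was the highest of the type I genes, with 0.44 and 0.24, and did not pass (adjusted p = 0.0923). For the 10 type I genes that did not pass, the lowest bound of any 95% interval was that of LTP2, at -0.52, and the highest that of AT2G18370, at 0.60.

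Among the type II proteins, which are shorter than type I, only AT1G48750 passed. Its signals were 11.40 in aluminium and 11.91 in control RNA on replicate 1, and 12.31 and 12.98 on replicate 2. The aluminium signal of replicate 2 was above the control signal of replicate 1, so the treatments overlapped across arrays, while the ratios of -0.51 and -0.67 were close (mean -0.59 ± 0.11, adjusted p = 0.0229 in limma). The other 8 type II genes had mean ratios between -0.14 for AT5G38170 and 0.11 for AT1G43665. AT1G43665 was not well above background in the control channel of replicate 1. Its ratio on that array was 0.27 here, but 1.17 both by the scanner software and in the series matrix. On replicate 2 the 3 values were -0.05, -0.11 and 0.16, so its mean near 0 depends on the processing. AT5G48490, listed as the closest copy of DIR1, a carrier needed for systemic resistance, was at -0.05 ± 0.081 (adjusted p = 0.775). DIR1 itself was not among the members or the tested genes.

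Of the members in no list, AT4G22610 fell. Its signals were 7.69 in aluminium and 8.47 in control RNA on replicate 1, and 7.81 and 8.66 on replicate 2, without overlap, and its ratio was -0.81 ± 0.047 (adjusted p = 0.00939 in limma). AT2G37870 had the highest mean ratio in this group, 0.55, from 0.16 on replicate 1 and 0.93 on replicate 2, and did not pass (adjusted p = 0.137). AT5G05960, at 0.69 and 0.22, and AT3G22570, at 0.45 and 0.24, did not pass either (adjusted p = 0.0970 and 0.0918). GLTP3, which is no lipid transfer protein of this fold, had -0.66 and -0.22 (adjusted p = 0.0981), and GLTP1 had 0.09 ± 0.13. AT5G52160 and SESA5 were well above background on 1 array only and AT5G62080 on neither, and they were not tested.

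Signals without overlap between treatments were found for 26 of the 78 tested members (33.3%), against 34.6% of all genes, and for 14 of the 15 that passed. The ratio had the same sign on both arrays for 53 members (67.9%), against 71.4% of all genes. Across the members, which are not independent replicates and share the 2 arrays, Pearson's r between replicate 1 and replicate 2 was 0.84 and Spearman's rho was 0.66. Over all genes tested, r was 0.80. Among the 63 members that did not pass, a set without those called for large and agreeing ratios, r was 0.36.

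**Figure D3:**
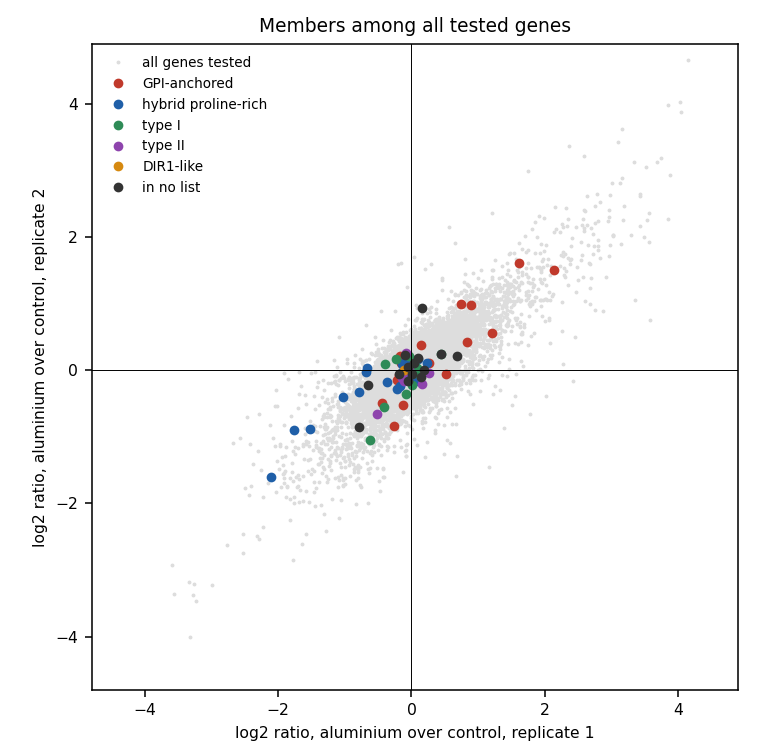
Log2 ratio of aluminium over control on replicate 1 (horizontal axis) against replicate 2 (vertical axis), with all 19194 tested genes in grey and the 78 members coloured by type. The members lie within the cloud of all genes, with a few GPI-anchored genes at the upper right and a few hybrid proline-rich genes at the lower left. Most members of every type lie near the origin.

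Lipid transfer protein genes often stand side by side as copies. In the gene order of RefSeq, 34 of the 82 members lay in 13 clusters with at most 2 protein-coding genes between neighbours. Of the 6 genes that rose, 5 had such a neighbour, and of the 9 that fell, 3 had one. The pair AT2G44290 and AT2G44300 on chromosome 2 rose together. In the cluster AT3G22570 to AT3G22620 on chromosome 3, 2 of 3 members rose, and the third, AT3G22570, had a positive ratio on both arrays. In other clusters the neighbours did not share a call. AT2G48130 rose and EDA4 did not pass, LTP5 fell and LTP12 did not pass, and ELP fell while AT1G12100 was at -0.06 ± 0.032. In the cluster from AZI1 to AT4G12530 on chromosome 4, 1 of the 6 tested members fell and none rose. AIR1 (AT4G12550), which fell too, is numbered just past this cluster and had no member within the limit of 2 genes. The copies may share probe signal, and this was not tested.

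**Figure D4:**
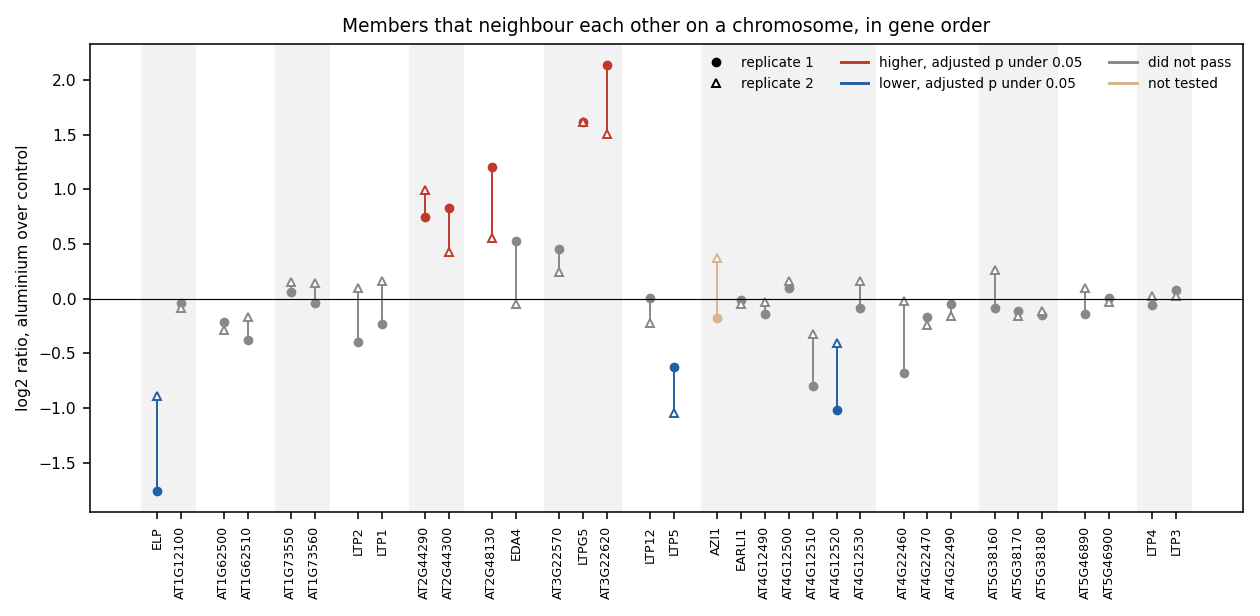
Log2 ratio of aluminium over control (vertical axis) of the 34 members that neighbour another member, in gene order, with shaded and plain bands for the 13 clusters, circles for replicate 1 and triangles for replicate 2. The clusters holding AT2G44290 and AT3G22620 have 2 genes each that rose, and the cluster of AZI1 and EARLI1 has 1 that fell.

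Genes that make or move the lipids carried by these proteins were listed as partners, a choice made with earlier results of these data known. Of 28 genes for suberin, cutin and wax, 8 rose (28.6%, against 8.25% of all genes) and none fell, with a median ratio of 0.39 on replicate 1 and 0.12 on replicate 2. The 4 with the smallest p are enzymes of suberin synthesis. CYP86B1, a hydroxylase of very long fatty acids, had signals of 11.52 in aluminium and 10.01 in control RNA on replicate 1, and of 11.49 and 10.62 on replicate 2. It rose by 1.19 ± 0.45 (adjusted p = 0.0152 in limma). GPAT5, an acyltransferase, rose by 0.97 ± 0.35 (adjusted p = 0.0168), the fatty acid elongase gene KCS2 by 0.67 ± 0.18 (adjusted p = 0.0209) and the reductase gene FAR4, which makes fatty alcohols, by 1.16 ± 0.55 (adjusted p = 0.0228). CYP86A1, the hydroxylase of shorter suberin acids, did not pass, with -0.14 ± 0.19 (adjusted p = 0.464, named after its value was seen). The wax genes CER1 and CER3, also named after their values were seen, were at 0.03 ± 0.024 and -0.06 ± 0.10 and did not pass. For all 8 genes that rose, the ratio was larger on replicate 1.

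Of 10 genes that act with DIR1 and AZI1 in systemic resistance, 6 rose (60%, against 8.25% of all genes) and none fell. Their medians were 0.47 and 0.62 on the 2 arrays. DIR1 and AZI1 themselves were not tested. Neither partner list was tested as a list. Both were chosen with earlier results of these data known, so their shares are a description only. EDS1, a hub of salicylic acid immunity, was at 11.36 in aluminium against 9.76 in control RNA on replicate 1 and at 11.50 against 10.11 on replicate 2, a rise of 1.50 ± 0.15 (adjusted p = 0.00373 in limma). The kinase gene MPK3, whose product binds AZI1, rose by 0.90 ± 0.035 (adjusted p = 0.00782). NPR1, a receptor of salicylic acid, rose by 0.68 ± 0.11 (adjusted p = 0.0160), and the kinase gene MPK6 by 0.50 ± 0.0013 (adjusted p = 0.0291). The lipid enzyme genes of this list, GLI1, SFD1 and FAD7, did not pass, with ratios from -0.25 to 0.11. ALD1 was lower on both arrays, at -0.30 and -0.39, and did not pass either (adjusted p = 0.0749 in limma).

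**Figure D5:**
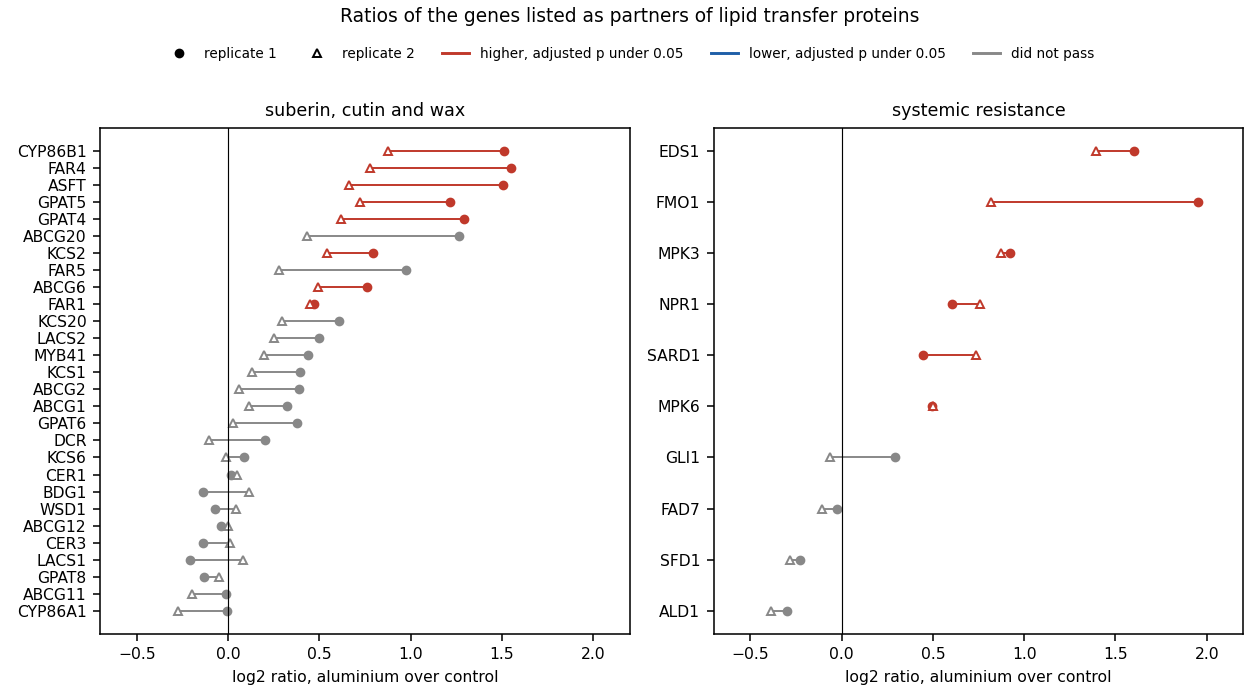
Log2 ratio of aluminium over control (horizontal axis) of 28 genes for suberin, cutin and wax (left) and 10 genes of systemic resistance (right), ordered by mean, with circles for replicate 1 and triangles for replicate 2. In red are the 8 and 6 genes that rose at an adjusted p under 0.05, and no gene of either list fell.

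Markers of the tissue were read beside these values. All 8 root markers were well above background in every channel, as the label root requires. So were all 8 green shoot markers, so this check does not set root RNA apart from shoot RNA. All 8 root markers fell, against 6.48% of all genes, with ratios from -0.49 for SHR to -3.11 for ESB1, both of which act in the endodermis. The log2 of their summed signals was 13.59 in aluminium and 14.88 in control RNA on replicate 1, and 14.04 and 15.12 on replicate 2. Of the 8 green shoot markers none was called, and the log2 of their summed signals was 13.07 against 13.13 and 12.43 against 12.47. The root markers were lower in the same RNA as the members that fell, while 8 of the 28 suberin, cutin and wax genes rose in it. A link between these changes was not tested, and the markers were chosen with earlier results of these data known. In RNA of whole roots, fewer cells of a type and less RNA per cell cannot be told apart.

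The calls depended on how the ratios were made. All 15 called members kept their direction under every setting that gave them a value. With both arrays in use none of their ratios moved by more than 1.5 times. Without replicate 1, that of AT4G12520 went from -0.72 to -0.41 and that of AT2G48130 from 0.88 to 0.55, as values with no test. Each of the 15 lost its call in at least 1 setting. With the ratios of the scanner software, only LTPG5 and AT2G45180 were called, 1 higher and 1 lower. With a background offset of 10 in place of 50, AT2G48130, AT2G44300, AT1G48750, XYP2, AT4G12520 and AT5G01870 lost the call, and with median centring the same genes except AT2G48130. Median centring left 5 higher and 5 lower members beside the 6 and 9 above. AT4G12520 was also lost over all kept probes (adjusted p = 0.0521 in limma) and AT5G01870 with an intensity trend (adjusted p = 0.0578). With the authors' series matrix values limma called 0 members, while 15 of the 74 that had a value were under an unadjusted p of 0.05 and the smallest adjusted p was 0.0535.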

How the data were processed

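For each array the authors deposited scanner output, in which each channel of a spot has an intensity that is not normalized. Per the file headers it came from Feature Extraction 8.1.1.1 (replicate 1) and 7.1.1 (replicate 2), while version 9.5.1.1 stands in the submitters' processing notes. They also hold the software's log10 ratio of the dyes, already background-corrected and dye-normalized per the file headers. The authors' series matrix was deposited as log2 values whose normalization and centring are unknown (medians -0.0103 and -0.0112). Set against the scanner ratios, they run as aluminium over control (r = 1.00 and 0.925 across genes). Dye orientation, array layout, software version and replicate change together and cannot be told apart.

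With limma 3.58.1 (R 4.3.3), normexp with an offset of 50 took the median local background off the mean signals, and loess was run on each array, in which the 736 and 1075 control spots had weight 0. Replicate 1, whose aluminium RNA carried Cy3, had its sign turned. Signals by treatment are log2 values after loess and quantile scaling of the average signal between arrays. Of 21500 probes, 108 had an outlier mark, 1151 more lacked a channel well above background on one array or both, and for 1047 of the rest the layouts gave no common locus. Dim probes have ratios drawn towards 0 by the offset. The median spot was 4.60 to 8.62 times as bright as its local background, depending on the channel, and 94.4% to 96.4% of probes were well above it. No member was saturated.

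The test was limma's lmFit and eBayes of the mean ratio against 0 (two-sided, with 4.06 prior degrees of freedom added to 1 residual), adjusted by Benjamini-Hochberg over 19194 genes. The labels call the arrays biological replicates, whose number limits the precision, and the smallest p that an exact sign-flip test allows here is 0.5. The procedure was also run on simulated data drawn from the fitted spread, with no dye or layout effect. That run says nothing about such effects on the real arrays. Intervals are 95% and use the moderated spread. All 82 loci were in the RefSeq gene table (assembly TAIR10.1), used for names and gene order only, since the files name no build.

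The members, type lists, partner and marker lists were chosen with earlier results of these data known. Named were all called members with 1 sign on both arrays, every type I gene and the DIR1 copy, a set of well-studied members, and the 4 partners with the smallest p per list. Members at the edge of a list's range or beside a named neighbour, and SFD1, GLI1, FAD7 and ALD1, were named after their values were seen. A search for protein features was planned and not run, as protein sequences were not used here. Alternatives covered background correction, normalization, source of the values, filters, features tested, variance prior and leaving out an array.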

Additional observations from a re-analysis of the deposited data

How the results depend on the processing

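The 15 called members kept their direction in every setting that gave them a value, and each of them lost the call in at least 1 setting. The scanner software's ratios gave 170 higher and 118 lower genes in all, an offset of 10 gave 1048 and 719, median centring 889 and 586, and the series matrix values 0 and 0 by limma's test, although 5073 genes had an unadjusted p below 0.05. Among the members these settings called 1 higher and 1 lower (scanner ratios), 4 higher and 5 lower (offset 10), 5 higher and 5 lower (median centring), and 0 and 0 (series matrix values). The members' median was -0.0447 with the series matrix values, and between -0.0479 and -0.0235 with 1 array left out. With the scanner ratios the GPI-anchored list had 1 higher and 0 lower genes, the hybrid proline-rich list 1 lower, and the type I, type II and unlisted members 0 lower. With an offset of 10 and with median centring, type I had 1 lower and type II and the GPI-anchored list 0 lower, and with an intensity trend type I had 1 lower. With the series matrix values each of these counts was 0. Of the partners, 0 suberin genes rose with the scanner ratios, 5 with an offset of 10 and 0 with the series matrix values, and of the systemic resistance genes 1, 3 and 0, and 3 with median centring. The ratio of EARLI1 turned to 0.0023 with the series matrix values (adjusted p = 0.991). The causes were not tested. No filter on background, and background in both channels, kept all 15 calls of members. No count can be had from 1 array, which leaves no residual degrees of freedom. The ratio of each array already pairs aluminium with control RNA of 1 replicate, so that the test of the mean ratio is itself paired, and no further replicate block could be fitted. Precision rests on 2 arrays, and for members near background also on the offset.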

Other observations

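The array's descriptions also form groups, which need not match the types used above. The 5 members described as similar to a 14 kDa polypeptide of Catharanthus roseus or a 14 kDa proline-rich protein of bean were all in the hybrid proline-rich list. They held 3 of the 9 genes that fell, AT2G45180, ELP and AT4G12520, which are among the 4 already counted in that list. Their median ratio was -0.72, beside 0.002 for all genes, and 60% of them fell, against 6.48% of all genes. The other 2 were AT4G12510 and AT5G46890, at -0.56 ± 0.33 and -0.02 ± 0.17. By contrast, the 7 tested members described as identical or similar to pEARLI 1 had a median of 0.04. They held 1 gene that rose, AT3G22620 (14.3%, against 8.25% of all genes), and 1 that fell, AIR1 (14.3%, against 6.48%). Both sets were formed after the values were seen and were not tested, and AT4G12510 and AT4G12520 may share probe signal.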
